A study of Mus musculus with 4 samples.

Results

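The gene group described here is BCL6 with 5 genes tied to its function: its paralog BCL6B, the corepressors BCOR, NCOR1 and HDAC3, and its antagonist PRDM1. They were taken by name from the array table, and all 6 were found among its 18113 genes. Their levels were measured in mouse fetal liver hematopoietic progenitors with 1 array for each of 4 groups. The groups were wild type with control retrovirus, wild type with a retrovirus for ETV6-RUNX1, Btg1-/- with control retrovirus and Btg1-/- with the ETV6-RUNX1 retrovirus. All cells came from C57BL6/J embryos at day 13.5, were selected as c-Kit+ Ter119-, and were expanded for 24 hours before infection and 48 hours after it. Culture then lasted 12 days in medium that held stem cell factor at 100 ng/ml, interleukin 7 at 20 ng/ml and FLT3 ligand at 10 ng/ml. How many embryos made up a culture, how the control virus differs from the other, and what share of cells was transduced are not given in the sources used here. The series title links BTG1 loss to leukemic transformation by ETV6-RUNX1 through BCL6, and the comparisons below ask how far each lesion moved BCL6 and its partners.

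BCL6 is a transcriptional repressor with an N-terminal BTB domain, which binds corepressors, and C-terminal zinc fingers, which bind DNA. BCOR brings in a variant Polycomb complex that marks histone H2A, whereas NCOR1 is the scaffold that holds and activates the histone deacetylase HDAC3. In pre-B cells STAT5, driven by interleukin 7, keeps Bcl6 low, and FOXO factors raise it. There and in germinal center B cells BCL6 restrains p53, ARF and other checkpoint genes. PRDM1, also called Blimp-1, represses BCL6 and is repressed by it, and drives plasma cell differentiation. ETV6-RUNX1 is a leukemia fusion that keeps the DNA-binding domain of RUNX1, and BTG1 is an antiproliferative co-regulator often deleted in the same disease.

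The Bcl6 promoter is shown because STAT and FOXO factors are the known inputs to this gene and the fusion keeps the DNA contacts of RUNX1. RefSeq (GRCm38.p6) gives 2 start sites on the minus strand of chromosome 16, and each window runs from 250 bases before a start to 50 after it. The motifs searched on both strands were the RUNX core TGTGGT, the STAT core TTCNNNGAA, which reads the same on both strands, and the FOXO core TGTTTAC. Capitals mark every match, and all matches in these windows were to the STAT core.
Bcl6, outer start, chr16:23988803-23989102: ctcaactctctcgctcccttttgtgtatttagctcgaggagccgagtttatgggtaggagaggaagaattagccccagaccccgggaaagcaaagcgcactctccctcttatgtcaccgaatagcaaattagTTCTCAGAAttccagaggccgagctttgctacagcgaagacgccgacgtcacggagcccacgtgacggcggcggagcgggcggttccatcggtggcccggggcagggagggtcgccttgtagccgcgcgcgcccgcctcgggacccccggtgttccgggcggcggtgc
Bcl6, inner start, chr16:23981234-23981533: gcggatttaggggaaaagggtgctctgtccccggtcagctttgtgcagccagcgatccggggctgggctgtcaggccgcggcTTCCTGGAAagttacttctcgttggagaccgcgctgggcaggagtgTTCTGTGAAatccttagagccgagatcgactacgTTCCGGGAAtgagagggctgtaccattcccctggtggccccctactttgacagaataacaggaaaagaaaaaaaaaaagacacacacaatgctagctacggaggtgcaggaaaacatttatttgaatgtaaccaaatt
The outer window held 1 STAT core, at base 133 counted from its 5′ end. The inner window held 3, at bases 83, 129 and 163. Over all 32851 RefSeq promoter windows, which overlap where a gene has several starts, 8.30% held a STAT core, 16.8% a RUNX core and 3.65% a FOXO core. A count of at least 3 STAT cores, chosen after the inner window was seen, was found in 11 of these windows. A match is a description of letters, not a binding site, and the array does not tell from which start the Bcl6 transcripts came. Of the other members, Bcor had 1 STAT core, which lies in both of its 2 overlapping windows. Ncor1 had 2 RUNX cores and 1 STAT core in the window of 1 of its 2 starts, and Prdm1 had 1 FOXO core. For Bcl6b and Hdac3 no window was searched.

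The deposited values are log2 levels that the authors normalized together over the 4 arrays, so a difference of 1 is a 2-fold change. A level of 6 served as the floor: lower values were raised to it and give only a bound. A gene entered a comparison of 2 arrays where at least 1 lay at or above the floor. Between 5869 and 5900 genes per array did so. With 1 array per group there is no replicate check and no test, and 2-fold was the rule of size. The spread given beside a difference is a robust standard deviation of the differences in a window of genes of like mean level, made of the gene, 250 above it and 250 below it. It describes these arrays and holds no variation between cultures. Its median over genes was 0.20 for BTG1 loss with control virus and 0.22 for the fusion in wild type, and 0.30 to 0.36 in the comparisons of 2 arrays that use the knockout array with ETV6-RUNX1. That array stood apart in this way, and differences that rest on it are read against the wider spread. BTG1, the deleted gene, stood at 11.87 and 11.97 in wild type without and with the fusion and at 9.02 and 9.97 in the knockout.

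BCL6 itself was highest where both lesions were present and lowest in the knockout without the fusion. Wild-type cells had a log2 level of 6.75 with control virus and 7.30 with the fusion, and knockout cells had 6.33 with control virus and 8.86 with the fusion. The gap of 1.55 from the highest array to the next was 4.46 times its spread. The gaps further down the order, 0.55 and 0.42, were 1.44 and 1.24 times theirs. Neighbours among the 3 lower arrays are thus separated by little more than the spread among genes of like level. The highest and lowest of these 3, at 7.30 and 6.33, are further apart, and that pair was not set against a spread. All 4 levels lay above the floor, and the gene had 1 probe row in the array's raw listing. These are bulk cultures, so more cells with BCL6 and more BCL6 RNA per cell cannot be told apart.

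The paralog BCL6B, which shares the zinc fingers of BCL6, stayed under the floor on all 4 arrays, with listed levels of 2.88 to 3.94. PRDM1 did too, with 2.33 to 3.29 from 2 probe rows. No difference is given for either, and a value under the floor does not show that the transcript is absent. The other 4 members lay above the floor on every array.

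**Figure D1:**
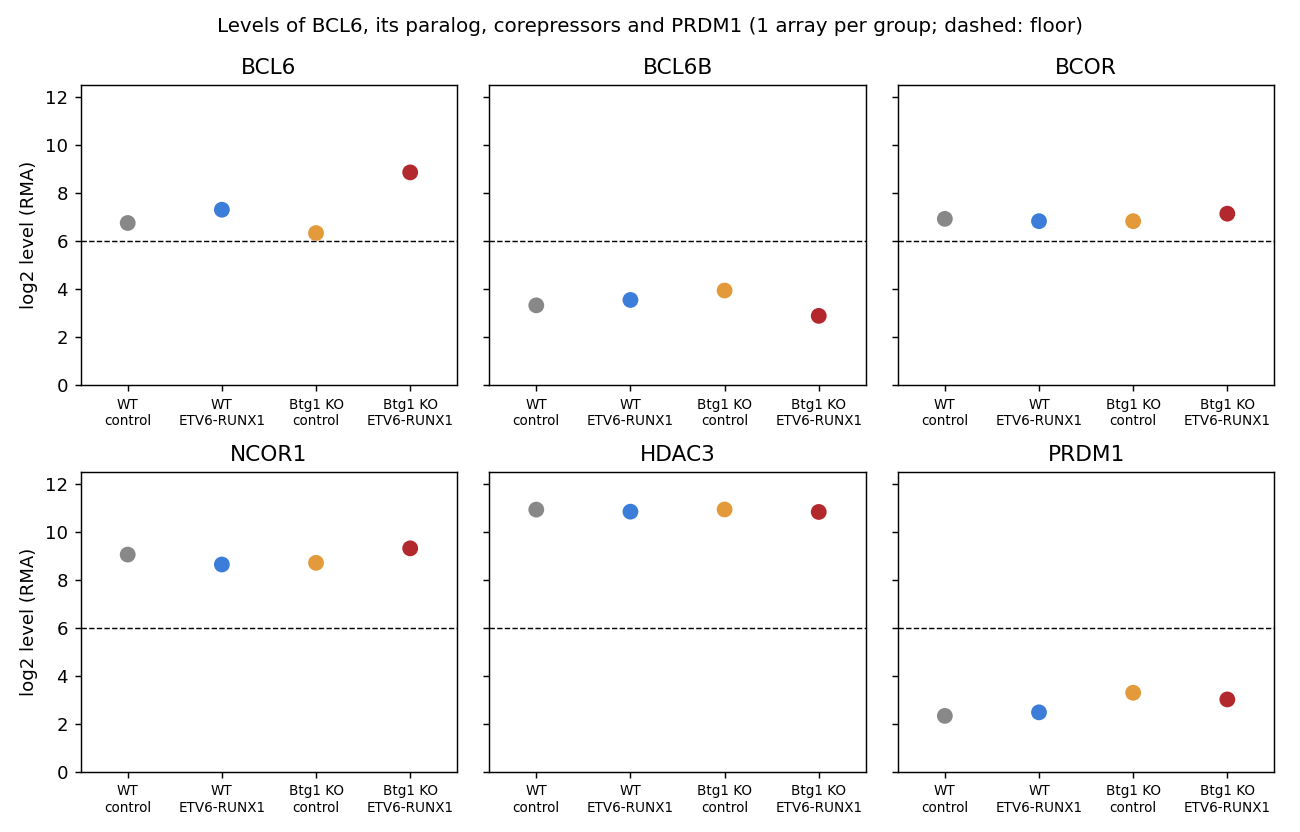
Log2 levels (vertical axis) of the 6 genes on the 4 arrays (horizontal axis), 1 point per array, with the floor of 6 dashed. BCL6 reaches 8.86 in the knockout with ETV6-RUNX1 against 6.33 to 7.30 elsewhere, HDAC3 lies between 10.82 and 10.93 throughout, and BCL6B and PRDM1 lie under the floor.

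The corepressors moved less than BCL6. NCOR1 stood at 9.05 in wild type with control virus and 8.63 with the fusion, and at 8.70 and 9.31 in the knockout without and with it. It was thus lower on the arrays with a single lesion than on the array with neither and the array with both. The top 2 levels were 0.26 apart, under their spread of 0.32, and the lowest 2 were 0.07 apart, under their spread of 0.22. The gap of 0.34 between these pairs of arrays was 2.04 times its spread.

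BCOR, which had 3 probe rows, stood at 6.92, 6.83, 6.83 and 7.14 in the same order of groups. Its levels in wild type with ETV6-RUNX1 and in the knockout with control virus were identical in the table, as were those of 17 other genes on these 2 arrays. No neighbouring pair of BCOR levels differed by more than the spread. HDAC3, the catalytic subunit, stood at 10.92, 10.83, 10.93 and 10.82, a range of 0.10 on the log2 scale or 1.07-fold. None of its gaps exceeded the spread either.

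The arrays of wild-type cells were set against each other to ask whether the fusion by itself moves BCL6 or its partners. BCL6 was 1.47-fold higher (log2 difference 0.55, spread 0.38), and 95.2% of the 6123 genes compared had a lower value. With a floor of 7 the control level of 6.75 is raised to that floor, and the BCL6 difference is at least 0.30. This bound is within the spread of 0.38 found with the floor of 6. NCOR1 differed by -0.41 (spread 0.22), BCOR by -0.10 (0.40) and HDAC3 by -0.09 (0.15). None of the 4 measured members passed 2-fold in this comparison, in which 1.88% of all genes were past 2-fold upward and 0.359% downward.

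The same comparison in Btg1-/- cells asks what the fusion does when BTG1 is missing. BCL6 was 5.76-fold higher (2.53, spread 0.43), the fourth highest difference of 6159 genes. NCOR1 was 1.52-fold higher (0.60, spread 0.36), BCOR differed by 0.31 (0.46) and HDAC3 by -0.10 (0.33). BCL6 was thus the only measured member past 2-fold, where 1.69% of all genes were past 2-fold upward and 2.37% downward. The level of 6.33 in the knockout control lies close to the floor. With a floor of 7 that level is raised to it, and the BCL6 difference is at least 1.86.

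Loss of BTG1 without the fusion went with no higher BCL6. Its level was lower in the knockout than in wild type by 0.42 on the log2 scale, or 1.34-fold, with a spread of 0.34. NCOR1 differed by -0.34 (spread 0.17), BCOR by -0.10 (0.33) and HDAC3 by 0.01 (0.12). No member passed 2-fold, and 0.361% of all genes did so upward and 0.312% downward. The wild-type control array serves here and in the comparison of the fusion in wild type.

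With ETV6-RUNX1 present in both, loss of BTG1 went with 2.94-fold higher BCL6 (1.55, spread 0.35), the fifth highest of 6106 genes. NCOR1 was 1.59-fold higher (0.67, spread 0.29), above 96.9% of genes, while BCOR differed by 0.31 (0.44) and HDAC3 by -0.01 (0.27). The background here was 0.671% of genes past 2-fold upward and 0.917% downward, and 1 of 4 measured members, BCL6, was past 2-fold. Cells with both lesions had 4.31-fold the BCL6 level of wild type with control virus (2.11, spread 0.38), the only 1 of 4 members past 2-fold, against 2.61% of genes upward and 1.78% downward. NCOR1, BCOR and HDAC3 differed there by 0.26, 0.22 and -0.10, each within its spread.

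Whether the fusion acts alike in both genotypes was asked by subtracting its effect in wild type from that in the knockout, over the 5442 genes that reached the floor on each array. The difference between the effects was 1.97 for BCL6 (spread 0.50), the sixth highest value. It was 1.02 for NCOR1 (spread 0.37), at rank 87, with a negative effect in wild type and a positive one in the knockout. It was 0.41 for BCOR (spread 0.55) and -0.02 for HDAC3 (0.34). BCL6 and NCOR1 were past 2-fold, against 1.67% of genes toward the knockout and 2.41% the other way. No test of this difference is possible with 1 array per group.

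**Figure D2:**
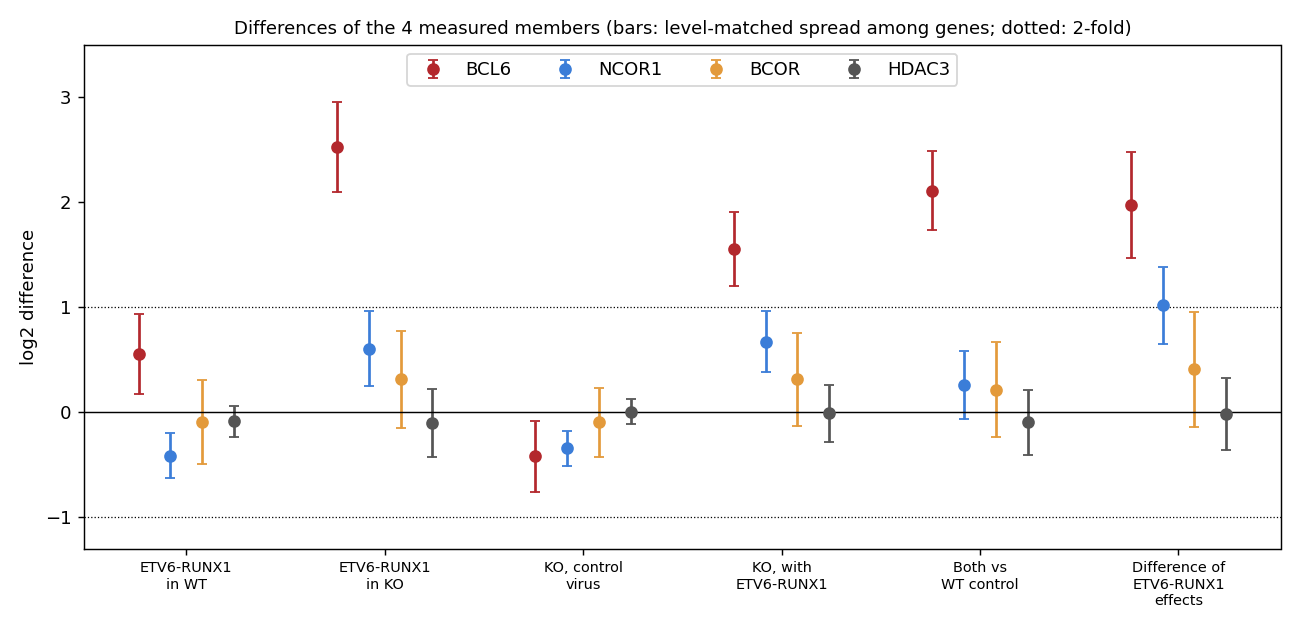
Log2 differences (vertical axis) of the 4 measured genes in the 5 comparisons of arrays and in the difference between the ETV6-RUNX1 effects (horizontal axis). Bars are the level-matched spread among genes, not replicate error, and dotted lines mark 2-fold. BCL6 lies above the upper line in each comparison that uses the knockout array with ETV6-RUNX1.

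The corepressor complexes around these members were then followed as lists of genes. Of the complex built on BCOR, 8 of 11 listed genes lay above the floor on at least 1 array, and none differed by 2-fold in any comparison. With ETV6-RUNX1 in the knockout 4 were higher and 4 lower (median 0.12, against 0.01 over all genes). PCGF1, the Polycomb RING finger protein that pairs with BCOR, differed by 0.34 and YAF2, which binds the RING1 proteins, by 0.30. RING1 differed by -0.05, USP7, a deubiquitinase, by -0.26 and SKP1A, an adaptor of ubiquitin ligases, by -0.34. BCOR and PCGF1 had differences of like size, 0.31 and 0.34, but that of BCOR was within its spread of 0.46. The list as a whole was evenly split.

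Of the complex built on NCOR1 and its relative SMRT, 4 of 7 genes were measured. SMRT itself was not analysed here. Besides NCOR1 and HDAC3 these were TBL1X and GPS2, subunits that bind the NCOR1 repression domains. With the fusion in wild type 4 of 4 were below 0 (median -0.18), where 45.4% of all genes lay above 0 (median -0.02). In the knockout 2 were above and 2 below, with GPS2 at 0.15 and TBL1X at -0.12. NCOR1 moved further than the other 3 in both genotypes.

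Of 12 other proteins that BCL6 is known to recruit, 7 were measured. With the fusion in the knockout 1 was past 2-fold upward, against 1.69% of all genes. This was HDAC5, a class IIa histone deacetylase that binds BCL6. It stood at 9.21 in wild type with control virus and 9.19 with the fusion, and at 9.12 and 10.17 in the knockout without and with it. The last array was the high one, as for BCL6, and the other 3 lay within 0.09 of each other. The fusion went with 2.08-fold higher HDAC5 in the knockout (1.05, spread 0.33) and a difference of -0.02 in wild type (0.20). HDAC7, of the same class, differed by 0.40 in the knockout and -0.17 in wild type. HDAC2, SIN3A, SAP30 and CHD4, subunits of the Sin3 and NuRD complexes, had differences of -0.31, -0.05, -0.23 and -0.12 in the knockout. The list had 3 genes above 0 and 4 below there (median -0.05), and 7 of 7 below 0 in wild type (median -0.10). Of all genes 51.3% lay above 0 in the knockout and 45.4% in wild type (medians 0.01 and -0.02).

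Proteins that modify BCL6 or set its stability gave 9 of 11 measured genes, none of them past 2-fold. With the fusion in the knockout 4 were above 0 and 4 below (median 0.01). EP300, an acetylase that blocks BCL6 function, differed by 0.31, and the deacetylase SIRT1 by -0.10. HSP90AB1, a chaperone that BCL6 relies on in lymphoma cells, differed by -0.41 and CUL1, a ubiquitin ligase scaffold, by -0.02.

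Known regulators of Bcl6 transcription lay mostly above 0 with the fusion in the knockout and mostly below 0 in wild type, at smaller size than BCL6. Of 14 listed genes 8 were measured in the knockout comparison, where 7 were above 0 (median 0.31) and MEF2B was below. Over all genes 51.3% lay above 0 there (median 0.01). MEF2B was above the floor only in the knockout control, at 6.64, so its difference of -0.64 is a bound and the drop may be larger. In wild type 2 of 7 were above 0 (median -0.12), against 45.4% of all genes (median -0.02). With the floor, none was past 2-fold in either. Over all genes 1.69% were past 2-fold upward and 2.37% downward in the knockout, and 1.88% and 0.359% in wild type. With the fusion present, 7 of 7 were higher in the knockout than in wild type (median 0.31, all genes 0.00, of which 50.4% lay above 0). This comparison and the one of the fusion in the knockout share an array.

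IRF8, an activator of Bcl6 in B cells, stood at 10.34, 10.22, 10.07 and 10.62 in wild type without and with the fusion and the knockout without and with it. IRF4, which represses Bcl6 in germinal centers, stood at 10.93, 10.41, 10.67 and 11.13. For both genes the knockout with ETV6-RUNX1 was the highest array. Their differences with the fusion were 0.55 and 0.46 in the knockout (spreads 0.33 and 0.33) and -0.12 and -0.52 in wild type (0.15 and 0.15). Activators and repressors of Bcl6 were thus both above 0 in the knockout.

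FOXO1, an activator, differed by 0.23 with the fusion in the knockout, within its spread of 0.34. MEF2C differed by 0.39 there and STAT3 by 0.11. STAT5A was outside the rule for named genes, was chosen after its values were seen, and is given because STAT5 represses Bcl6. It stood at 6.82, 6.55, 6.53 and 6.70, and its difference of 0.17 was within the spread of 0.51. STAT5B, also outside that rule, lay under the floor on all arrays. Activity of STAT5 and FOXO proteins is set largely by phosphorylation, which RNA levels do not show.

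**Figure D3:**
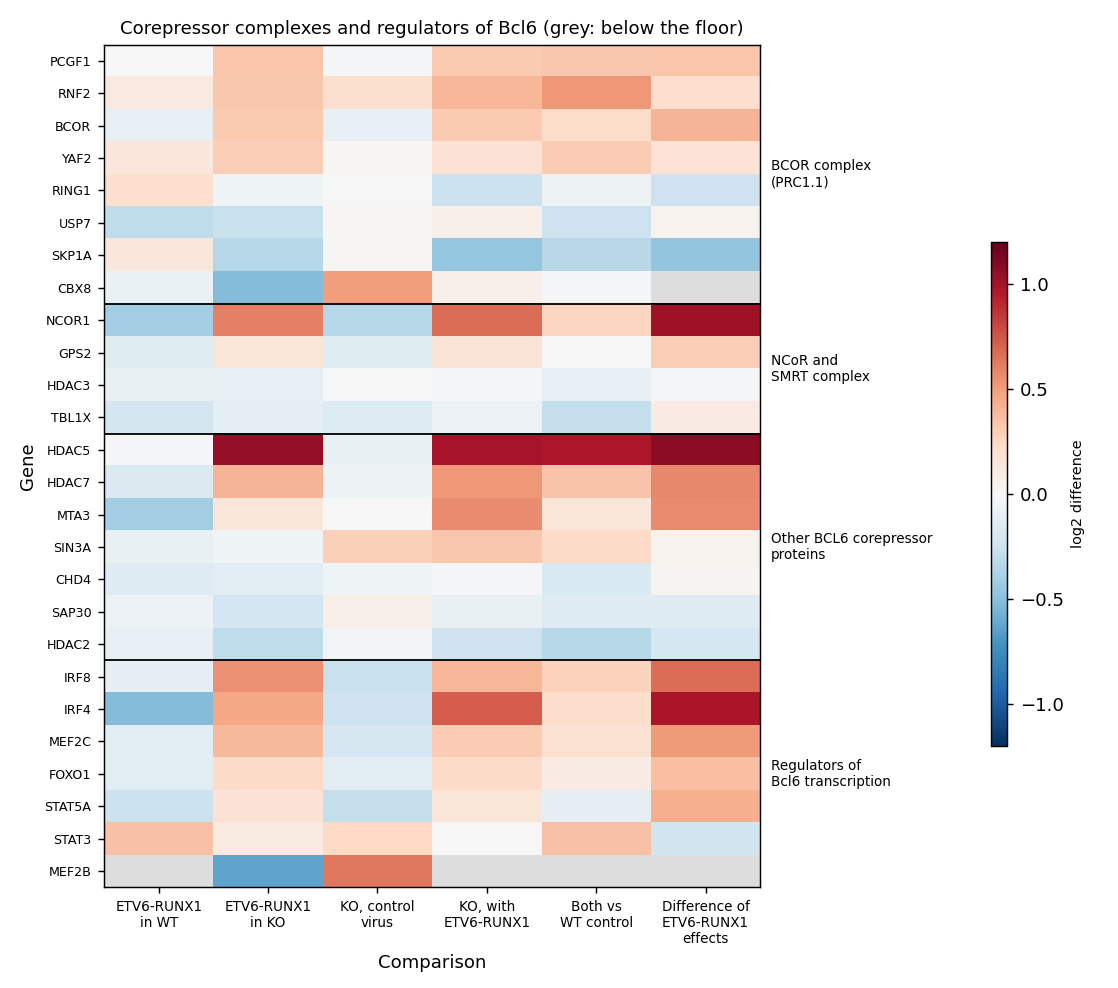
Log2 differences (colour) of the genes shown from 4 lists (rows) in the 5 comparisons and the difference between the ETV6-RUNX1 effects (columns), with grey where a gene did not enter for lying below the floor. HDAC5, NCOR1 and IRF4 are reddest in the last column, at 1.07, 1.02 and 0.98.

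Genes that BCL6 is known to repress did not move one way. Of 26 listed genes 15 were measured, and PRDM1 was among those under the floor. With the fusion in the knockout 10 were above 0 and 5 below (median 0.28), with 2 past 2-fold downward and none upward. Over all genes 51.3% lay above 0 there (median 0.01), with 2.37% past 2-fold downward and 1.69% upward. In wild type 5 were above 0 and 10 below (median -0.14), with 1 past 2-fold each way. Over all genes 45.4% lay above 0 in that comparison (median -0.02), with 0.359% past 2-fold downward and 1.88% upward. BTG1 is on this list, and without it the medians are 0.21 and -0.23.

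BCL2, an inhibitor of apoptosis, stood at 7.74 and 6.77 in wild type without and with the fusion, and at 7.95 and 6.04 in the knockout without and with it. Both arrays with the fusion were lower than both without it. The fusion went with 3.77-fold lower BCL2 in the knockout (-1.92, spread 0.47) and 1.96-fold lower in wild type (-0.97, spread 0.32). CCND2, cyclin D2, stood at 11.58, 11.22, 11.74 and 10.73 in the same order, and was lower by 2.02-fold in the knockout and 1.28-fold in wild type. TRP53, the p53 gene, differed by -0.60 in the knockout and -0.12 in wild type, and CD69, an activation marker, by -0.29 and -0.34.

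CDKN2A, the INK4a and ARF gene that opposes transformation of pre-B cells, stood at 7.64 in wild type with control virus, 6.51 with the fusion, 6.58 in the knockout with control virus and 5.31 with both lesions, which is under the floor. Each lesion alone went with a level at least 2-fold lower, by 2.20-fold for the fusion and 2.10-fold for BTG1 loss. Cells with both lesions were at least 3.12-fold below wild type with control virus, and at least 1.49-fold below the knockout control. On the array with the highest BCL6, CDKN2A and BCL2 were at their lowest, while IRF4, on the same list, was at its highest. With the fusion in the knockout 10 of the 15 measured genes of the list were above 0 and 5 below. The knockout control, with the lowest BCL6, had the highest BCL2 but not the highest CDKN2A.

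Other genes of the list lay above 0. ID2, an inhibitor of E proteins, stood at 6.81, 8.37, 7.54 and 8.15 and was 2.96-fold higher with the fusion in wild type and 1.52-fold higher in the knockout. CXCR4, a chemokine receptor, was higher by 0.42 in the knockout and lower by 0.31 in wild type. CDKN1A, the p21 gene, lay outside the rule for named genes and was chosen after its values were seen. It stood at 8.59, 8.63, 8.74 and 9.17.

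**Figure D4:**
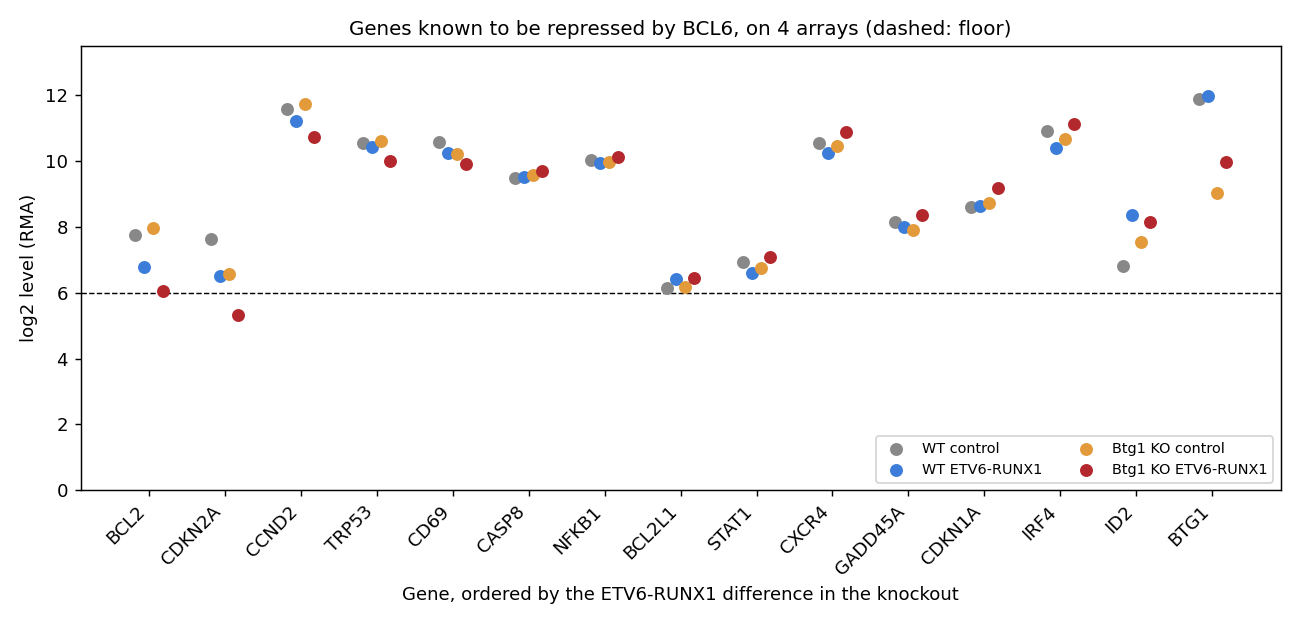
Log2 levels (vertical axis) of the 15 measured genes that BCL6 is known to repress (horizontal axis), 1 point per array, with the floor dashed. BCL2 and CDKN2A fall lowest in the knockout with ETV6-RUNX1, at 6.04 and 5.31, while IRF4, CXCR4 and CDKN1A are highest there.

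Genes on the PRDM1 side gave little to measure. Of 7 plasma cell genes only IRF4 and XBP1, a factor of the secretory program, lay above the floor, and XBP1 differed by -0.78 with the fusion in the knockout. Of 7 genes that PRDM1 represses, 4 were measured and 4 were above 0 in the knockout comparison, against 51.3% of all genes. BCL6 itself counts among the 4. Besides BCL6 these were BACH2, SPIB and ID3, at 0.77, 0.28 and 0.25. BACH2, a repressor that works with BCL6 in B cells, stood at 10.89, 10.75, 10.80 and 11.57, and in wild type its fusion difference was -0.15. Of the PRDM family 1 of 11 genes was measured, PRDM4, at -0.22. Of 21 BTB zinc finger genes 8 were measured in the knockout comparison, and only BCL6 was past 2-fold. ZBTB24 and ZBTB22 followed at 0.49 and 0.40, and ZBTB5, ZBTB7A, ZBTB17 and ZBTB2 lay between -0.10 and 0.13.

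Markers of cell types differed between these cultures, some in the order of BCL6 and some not, and their part in the BCL6 differences was not tested. B-cell progenitor markers, 11 of 13 on the array, had a mean floored level over 10 genes of 9.66, 9.61, 9.54 and 10.15 in wild type without and with the fusion and the knockout without and with it. With the fusion in the knockout 10 of 10 were above 0 (median 0.49), against 51.3% of all genes (median 0.01). RAG1, of the V(D)J recombinase, led at 1.47, and DNTT, the terminal transferase, was at least 2.07-fold higher. RAG1 stood at 10.79, 10.63, 9.62 and 11.09 in the same order of groups, so its low level in the knockout control enters that difference. CD79B, a signalling chain of the B-cell receptor, differed by 0.42. PAX5 lay under the floor on all arrays. In wild type 4 were above 0 and 5 below with the fusion (median -0.02, the same as over all genes), where BCL6 differed by 0.55. The array with the highest BCL6 thus also had the highest mean of B-cell progenitor markers, and the knockout with control virus was lowest in both. The wild-type arrays, with means of 9.66 and 9.61, lay in the other order from BCL6.

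Mast cell and basophil markers had mean levels over 9 genes of 10.53, 11.99, 11.26 and 11.97, low in the wild-type control and alike in both cultures with the fusion. Of 9 measured genes 9 were past 2-fold upward with the fusion in wild type, against 1.88% of all genes. In the knockout none was, against 1.69% of all genes, and 9 of 9 were above 0 (median 0.71). BCL6 did not follow that order. Megakaryocyte markers had 3 of 8 genes above the floor on at least 1 array, with mean floored levels of 6.25, 7.32, 6.21 and 7.52. These means had the same order of arrays as BCL6, but of the genes only GFI1B had it by itself. ITGA2B was lower in the wild-type control than in the knockout control, with listed levels of 5.87 and 6.17. VWF was highest in wild type with the fusion, at 7.13. Among T cell, erythroid, and granulocyte and monocyte markers 1 gene of each list lay above the floor on any array, LCK, HBB-B1 and LYZ2. CD3E, CD4, CD8A, MPO and CSF1R lay under it throughout, and so did the plasma cell markers SDC1 and TNFRSF17.

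The genes whose profile came nearest to that of BCL6 were ranked by the Euclidean distance of log2 levels centred on each gene's mean over the 4 arrays, among 6321 genes. The centred BCL6 profile has a length of 1.91 on this scale. Nearest was RPL3L, which codes for a ribosomal protein of muscle, at a distance of 0.39. RAMP1, a receptor accessory protein, followed at 0.50, COX6A2, a muscle subunit of cytochrome oxidase, at 0.64 and TLE6, a Groucho relative, at 0.73. The other 6 of the 10 nearest were CYP2D22, GFI1B, IL12A, ABCB4, ENPP6 and ZFYVE1, at 0.80 to 0.93. GFI1B, a transcriptional repressor that acts in erythroid and megakaryocyte development, stood at 6.76, 7.15, 6.44 and 7.95, the same order of arrays as BCL6.

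The inverted profile had closer neighbours. DCTD, a deoxycytidylate deaminase, lay at 0.33, the connexin gene GJA1 at 0.39, SEMA4A at 0.42 and CD74, the MHC class II invariant chain, at 0.45. IFRD2, GLDC, SRM, CISH, SERPINA3G and EEF1E1 lay at 0.50 to 0.56. CISH, a feedback inhibitor that STAT5 induces, stood at 11.31, 10.73, 11.07 and 8.94. Of each set of 10, 5 were also among the 10 nearest with a floor of 7. With 4 arrays such likeness rests mainly on the knockout array with ETV6-RUNX1, and it says nothing of shared control.

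**Figure D5:**
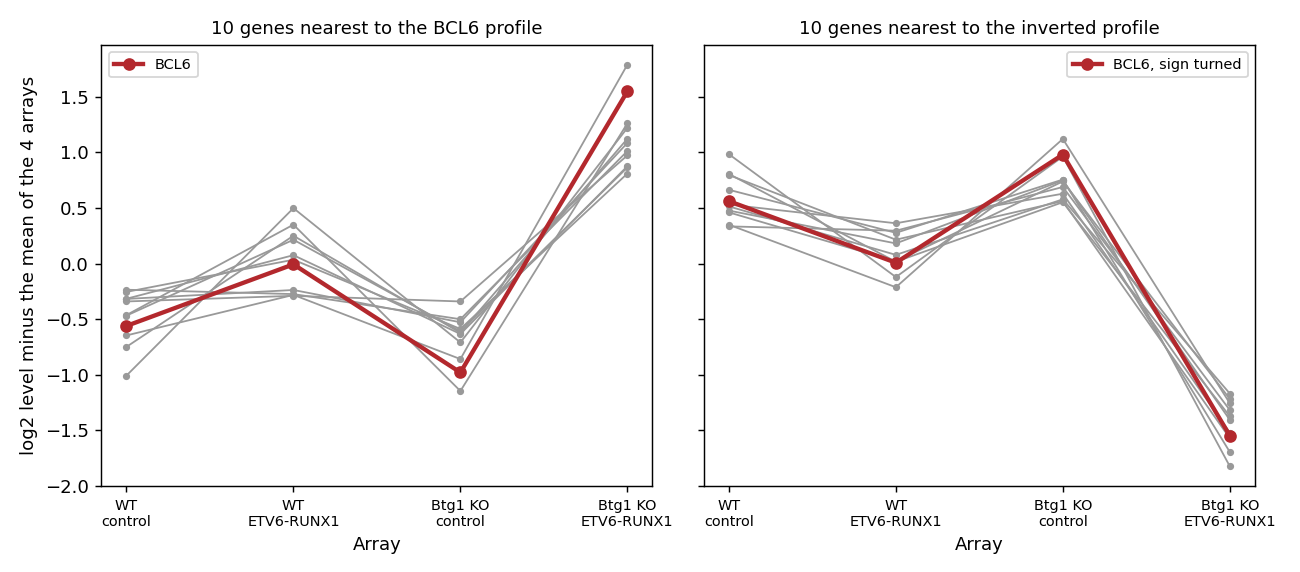
Log2 levels minus each gene's mean over the 4 arrays (vertical axis) by array (horizontal axis), for the 10 genes nearest to BCL6 and the 10 nearest to its inverted profile (grey). BCL6 is in red, with its sign turned in the right panel. Every grey line on the left is highest, and every one on the right lowest, at the knockout array with ETV6-RUNX1, where RPL3L stands at 9.02 and GLDC at 9.09 before centring.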

How the data were processed

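RNA levels were measured on Illumina MouseRef-8 arrays, per the file headers, in 4 samples, 1 per group. The deposited values are log2 levels that the authors normalized with RMA in ArrayStar, per the file headers, and RMA is also named in the submitters' processing notes. RMA as usually run gives all arrays 1 distribution, which would hide a change common to all genes. The sources used here do not say how probes of 1 gene were merged. The authors' deposited fold ratios equaled 2 raised to the difference between levels, with a tolerance of 1e-05 after log2. A raw listing was used only to count probe rows, since the names of its 8 columns of signals and detection p-values match no sample's labels; these 8 columns were not used. Microarrays give no depth, and the number of arrays limits the precision.

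Members and lists were chosen with earlier results of these data known. The 16 lists hold 171 genes: 145 matched by symbol, 8 by a RefSeq synonym (GRCm38.p6), and 18 were not analysed here. Named genes are the members, list genes past 2-fold in a comparison or among the 6 highest of their list, and the 10 nearest to the BCL6 profile either way. Genes known by clone names were skipped, and some genes that the rule names are not reported here. Comparisons are differences of 2 arrays, with a floor of 6, described by spread and not tested. The alternatives were floors of 5 and 7 and none, 2 scalings, a fold of 1.5, and 100 or 500 genes on either side for the spread, and 2 were added after the data were seen. The calculations used Python 3.11.15, numpy 2.4.6, pandas 2.3.3, scipy 1.17.1 and matplotlib 3.10.9, and were tested on simulated data.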

Additional observations from a re-analysis of the deposited data

Results flagged for a closer look

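Some genes had effects of opposite sign under the same contrast in the other background, with 1 array each, so the differences were not tested. The difference between the ETV6-RUNX1 effects (knockout minus wild type) was 1.02 for NCOR1 and 0.41 for BCOR, whose fusion effects and BTG1-loss effects both changed sign. All of these BCOR effects lay inside their spreads, and its fusion and BTG1-loss effects are the same numbers, since both single-lesion arrays hold 1 identical level. HDAC5 (1.07) and RAG1 (1.63) also changed sign in both, though the negative HDAC5 effects of -0.02 and -0.09 lay inside their spreads of 0.20 and 0.16. For BCL6 (1.97) and GFI1B (1.12) only the effect of BTG1 loss changed sign, negative with control virus and positive with the fusion, and the negative GFI1B effect of -0.32 was inside its spread of 0.33. It ran the other way for the mast cell genes MS4A2 (-1.22) and TPSAB1 (-1.24), whose negative effects of -0.24 and -0.14 were inside their spreads of 0.31 and 0.30. For HDAC3 (-0.0173) the effects of BTG1 loss were 0.01 and -0.01, inside their spreads of 0.12 and 0.27.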

How the results depend on the processing

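The direction of the BCL6, NCOR1 and BCOR differences was kept under every floor and scaling that gave a value, but these settings could not have reversed it. The levels of these genes lie above 6 on every array, and raising values to 7 cannot turn the order of 2 arrays. The scalings moved the arrays by less than these differences. HDAC3 changed sign in 1 of 30 values, at a size near 0. The largest shift of an array under the 2 scalings was -0.01. With a floor of 7 the BCL6 difference with the fusion was at least 1.86 in the knockout and at least 0.30 in wild type. Both are bounds, since the control level is under that floor in either genotype. That floor gives no BCL6 value for BTG1 loss without the fusion or for the difference between effects, where 1 member then passed 2-fold. Members past 2-fold numbered 2 with the fusion in the knockout without a floor, when BCL6B enters, and 2 at 1.5-fold, with NCOR1. At 1.5-fold there were also 2 for BTG1 loss with the fusion. Genes past 2-fold without a floor numbered 1574, 1690, 1468, 1404, 1824 and 3217, in the order fusion in wild type, fusion in the knockout, BTG1 loss without and with the fusion, both lesions, and difference between effects. In that order they were 241, 379, 100, 174, 431 and 374 with a floor of 5, and 75, 152, 19, 50, 166 and 121 with a floor of 7. Requiring 3 times the spread as well, chosen after the data were seen, left 121 with the fusion in the knockout, 53 for BTG1 loss with the fusion, 164 for both lesions and 91 for the difference. The cause was not tested. No paired analysis was possible because each group has 1 array. Signal over background was not analysed here, and levels near the floor are the least certain.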

Other observations

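RUNX1, measured as a check of the labels, stood at 8.20 and 8.03 in wild type without and with the fusion. In the knockout it stood at 8.14 and 7.82. ETV6 lay under the floor on all 4 arrays, with listed levels of 4.92 to 5.44. RUNX1 was thus not higher on the arrays with the fusion, and these readouts do not show which arrays carry it. BTG1 in the knockout was 1.93-fold higher with ETV6-RUNX1 than with control virus (0.95, spread 0.34), so its residual readout moved in the same direction as BCL6 there, and the part of this in other results was not tested.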
